A study of Homo sapiens and Mus musculus with 19 samples.

Results

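K562 is a human chronic myeloid leukaemia cell line, and the labels of its libraries name no stimulus. In its chromatin-associated RNA, levels were read for 10 genes of the first transcriptional response to growth factors and stress. They are 4 genes of the FOS family (FOS, FOSB, FOSL1 and FOSL2), 3 genes of the JUN family (JUN, JUNB and JUND), and the immediate early genes EGR1, IER2 and DUSP1. The genes were chosen by name and found through their Ensembl identifiers, and the 10 of them are among 58721 genes counted in each K562 library. The 12 libraries form 4 groups of 3. TET2 WT shControl cells were wild type for TET2 and carried a control shRNA, and TET2 WT shMBD6 cells carried an shRNA against MBD6 in its place. TET2 KO shControl and TET2 KO shMBD6 cells were a TET2-/- K562 line with the same 2 shRNAs. Both shRNAs were delivered by lentivirus and the cells were selected with puromycin, so that the control groups carry a vector and the selection too. Whether the TET2-/- line is 1 clone is not given in the sources used here, so a difference between the genotypes is a difference between 2 lines. TET2 is an enzyme that oxidises 5-methylcytosine, and MBD6 is a methyl-CpG-binding domain protein. The design asks how chromatin-associated RNA differs between the TET2 genotypes, and whether the MBD6 shRNA changes it in the same way in both.

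Immediate early genes are transcribed within minutes of a stimulus without new protein synthesis, mostly through RAS and ERK signalling to serum response factor and its partners at the promoter. FOS and JUN proteins pair through leucine zippers to form AP-1, which binds the short motif TGANTCA, and the JUN proteins can also pair among themselves. FOSL1 and FOSL2 encode FRA proteins without the strong activation domain of FOS, JUNB and JUND often oppose or replace JUN, EGR1 is a zinc-finger transcription factor, IER2 encodes a short-lived nuclear protein, and DUSP1 is a phosphatase that switches off JNK, p38 and ERK kinases. RNA on chromatin is largely nascent transcript, so these libraries read the genes closer to synthesis than a poly(A) library does.

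Promoter sequence is shown for EGR1, JUND and JUN, the members with a match to a searched motif before the start of transcription that were also called below in both shRNA comparisons. RefSeq windows of GRCh38.p14, reaching from 250 bases before to 50 bases after the annotated start of transcription, were found for 9 of the 10 genes, and FOSL1 was not among them. The 250 bases before the start are printed here 5′ to 3′ in the direction of the gene, with matches to the searched motifs in capitals. EGR1 lies on the plus strand (chr5:138465229-138465478), and JUND (chr19:18281623-18281872) and JUN (chr1:58784048-58784297) lie on the minus strand.
EGR1: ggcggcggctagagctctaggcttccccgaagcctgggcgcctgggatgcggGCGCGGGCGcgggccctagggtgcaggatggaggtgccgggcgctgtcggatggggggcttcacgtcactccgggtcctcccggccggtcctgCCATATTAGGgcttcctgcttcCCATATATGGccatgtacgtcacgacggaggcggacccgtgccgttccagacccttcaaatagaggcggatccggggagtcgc
JUND: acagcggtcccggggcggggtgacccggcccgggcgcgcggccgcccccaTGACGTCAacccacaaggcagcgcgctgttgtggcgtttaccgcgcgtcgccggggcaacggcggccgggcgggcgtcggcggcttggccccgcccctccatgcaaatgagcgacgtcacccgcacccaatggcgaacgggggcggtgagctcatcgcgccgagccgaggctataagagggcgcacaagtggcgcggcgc
JUN: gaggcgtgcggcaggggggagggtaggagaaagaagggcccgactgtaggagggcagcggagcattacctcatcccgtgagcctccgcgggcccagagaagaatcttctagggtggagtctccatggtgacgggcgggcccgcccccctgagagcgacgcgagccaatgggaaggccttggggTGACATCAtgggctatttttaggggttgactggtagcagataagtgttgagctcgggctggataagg
The EGR1 window held 2 CArG boxes, the binding motif of serum response factor, which began 105 and 83 bases before the start, and a match to the EGR motif GCGNGGGCG 198 bases before it. JUND and JUN each held the octamer TGACNTCA, which CREB, ATF and JUN proteins bind, at 200 and 67 bases before the start, and DUSP1 held it 125 bases before the start. FOSL2 held an AP-1 motif TGANTCA, which began at base 5 after the start. On both strands and over all 35116 windows of the same length, the CArG box was present in 1.29%, TGACNTCA in 7.72%, TGANTCA in 7.71% and GCGNGGGCG in 9.43%. A match to TGACNTCA is not also a match to TGANTCA, and no 2 matches in the windows printed here overlap. A match is a description of these letters and says nothing about binding in these cells.

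Each library held between 52158403 and 102070223 counts over genes. Values are given as CPM, the counts of a gene relative to the library's total and scaled between libraries by the trimmed mean of M values, and a gene was called where the Benjamini-Hochberg adjusted p of edgeR's quasi-likelihood test over the 26023 genes tested was under 0.05. All 10 genes were tested. Nothing in the labels says that the 3 libraries of a group came from separate cultures, so p-values measure the spread between libraries. MBD6 was at 43.3, 42.7 and 38.6 CPM in TET2 WT shControl and at 31, 25.7 and 27.2 CPM in TET2 WT shMBD6, a log2 difference of -0.57 ± 0.08 (SE, adjusted p = 1.83e-07). In TET2 KO shControl MBD6 was at 30.6, 30.8 and 29.4 CPM, and in the libraries labelled TET2 KO shMBD6 at 30.6, 38.3 and 34.2 CPM. This log2 difference of 0.19 ± 0.08 (adjusted p = 0.0574) does not show the loss that their label implies. Protein-coding genes of 5 to 10 kb, the span class of MBD6, had a median of 0.20 in this comparison. With the control shRNA, MBD6 was already lower in the TET2 KO line than in the WT (-0.46 ± 0.08, adjusted p = 6.5e-06). RNA on chromatin is largely nascent, and mature MBD6 mRNA was not measured here. Directions drawn from these 3 libraries are therefore differences of libraries labelled TET2 KO shMBD6, not of a measured loss of MBD6. TET2 RNA was at 118 to 124 CPM in TET2 WT shControl and at 127 to 131 CPM in TET2 KO shControl, a log2 difference of 0.09 ± 0.04 (adjusted p = 0.0735). In the libraries labelled TET2 KO shMBD6 it was at 91.6 to 101 CPM, -0.44 ± 0.04 from the KO controls (adjusted p = 7.24e-11). The TET2 gene spans 134 kb, and protein-coding genes of more than 100 kb had a median of -0.29 in that comparison. As the TET2 lesion need not remove the transcript, these TET2 levels do not check the genotype. K562 is labelled a lymphoblast line. The lymphoid markers MS4A1, CD79A, CD3E, CD2 and CD7 were each under 1 CPM on average over the 12 libraries, while PAX5 was at 0.72 to 4.02 CPM and CD3D at 0.511 to 2.47 CPM. The summed level of 10 erythroid and megakaryocytic genes was 504 to 1056 CPM, of which TFRC alone gave 315 to 584 CPM. Among the globin genes in that list HBG2 and HBE1 had 0 counts, HBZ was under 1 CPM on average and HBG1 was at 0.798 to 6.82 CPM. Reads that did not align uniquely, or that overlapped several genes, were assigned to no gene. A low or 0 count of these genes therefore does not show that the RNA was absent.

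On a scale that allows genes to be compared, CPM per kb of gene span, JUND had the highest mean in every group, though its range overlapped that of IER2 in TET2 KO shControl. With wild-type TET2 and the control shRNA, JUND was at 12.2 ± 1.23 CPM per kb (SD, n = 3), followed by IER2 at 8.02 ± 0.627, EGR1 at 4.64 ± 0.369, JUNB at 3.79 ± 0.701, JUN at 3.55 ± 0.224, FOSL1 at 2.27 ± 0.0933, DUSP1 at 1.56 ± 0.398, FOS at 0.36 ± 0.036, FOSL2 at 0.217 ± 0.0102 and FOSB at 0.148 ± 0.0347 CPM per kb. The ranges of EGR1 and JUNB overlapped, as did those of JUNB and JUN, and the other neighbours in this order did not overlap. FOS stood below all 3 JUN genes, and it was counted 13 to 131 times per library. In TET2 KO shControl EGR1 moved from rank 3 to rank 6, at 1.54 ± 0.103 CPM per kb, level with FOSL1 at 1.64 ± 0.19, whose range overlapped its own. For the TET2 WT shControl libraries, division by the union of exons gave FOSL1 10.2, JUN 7.05 and EGR1 5.65 CPM per kb. The order thus depends on the length used. Per kb of exon JUND had the highest mean in TET2 WT shControl only. IER2 stood above it in TET2 WT shMBD6 (8.63 against 7.84) and TET2 KO shControl (10.1 against 7.1), and FOSL1 (10.4) and IER2 (9.58) stood above it (9.14) in the libraries labelled TET2 KO shMBD6. Lengths are from GENCODE v44, and the counts were made with v29. The span of JUN is 7.2 kb with 3624 bases of exon in v44 and was not checked in v29, so its level per kb, its rank and its place among genes of 5 to 10 kb are uncertain.

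**Figure D1:**
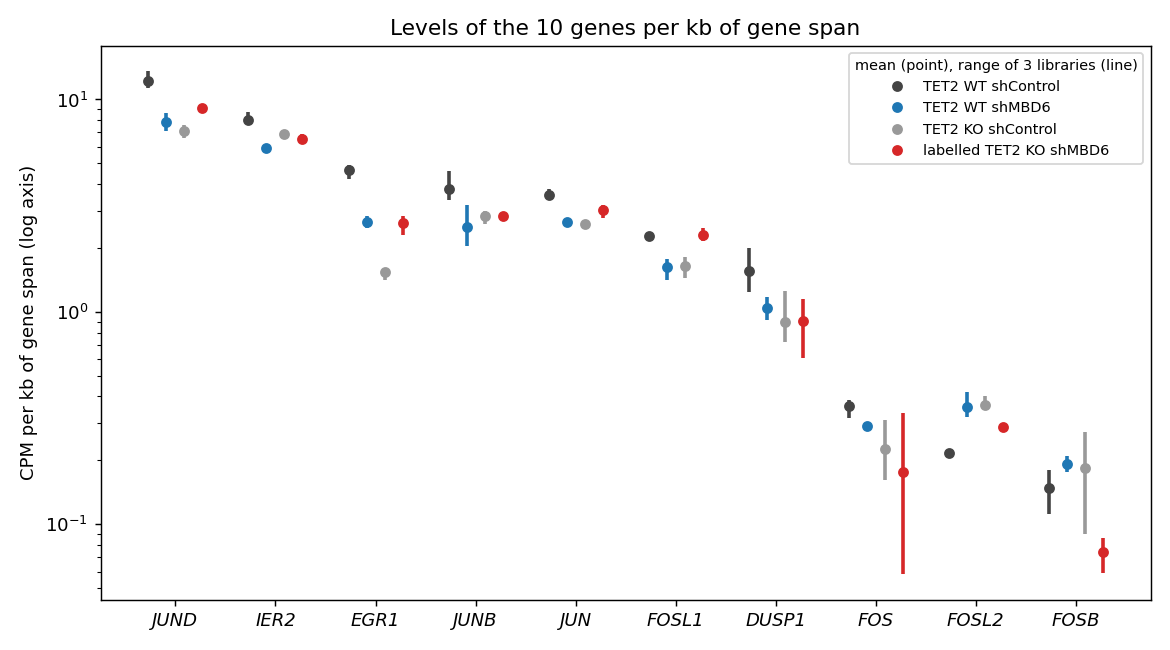
CPM per kb of gene span on a log axis for the 10 genes in the 4 groups, as the mean (point) and the range (line) of 3 libraries. JUND and IER2 lead in each group, EGR1 falls from 4.64 to 1.54 CPM per kb between the TET2 WT and TET2 KO shControl groups, and FOS, FOSL2 and FOSB lie under 0.5 CPM per kb throughout.

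Between the genotypes with the control shRNA, the JUN family, FOSL1, EGR1, IER2 and DUSP1 were lower in the TET2 KO line and FOSL2 was higher. Of the 10 genes 8 were called, against 45.8% of all genes tested. Of these, 1 was higher (23.5% of all genes) and 7 were lower (22.3% of all genes). The median log2 difference of the 10 was -0.46, beside -0.05 over all genes. These levels are relative to each library, as the counts hold no spike-in. The paper describes an excess of chromatin-associated RNA in K-562 after TET2 KO, so lower here need not mean less RNA in absolute amount. In this bulk RNA, fewer cells with a transcript and less of it per cell cannot be told apart.

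EGR1 had the largest difference of the 10. It was at 18.1, 16.2 and 18.9 CPM in TET2 WT shControl and at 6.05, 5.43 and 6.17 CPM in TET2 KO shControl. Every library of the KO line was far under every library of the WT line, with a log2 difference of -1.59 ± 0.12 (SE), 3.01-fold lower (adjusted p = 1.98e-13). Genes of the erythroid and megakaryocytic list differed in the same groups, with 7 of the 8 tested called lower and a summed level of 1029 to 1056 CPM in TET2 WT shControl and 504 to 514 CPM in TET2 KO shControl, and their part in the result was not tested.

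All 3 JUN genes were lower. JUND, the JUN gene usually transcribed without a stimulus, was at 26.2, 21.7 and 22.5 CPM in the WT and at 13.7, 14.6 and 12.8 CPM in the KO line, a log2 difference of -0.78 ± 0.09 (adjusted p = 1.99e-08). JUN was at 24.7, 27.4 and 24.5 CPM in the WT and at 17.9, 18.7 and 19.6 CPM in the KO line, a log2 difference of -0.45 ± 0.08 (adjusted p = 2.18e-05). For both genes the groups were apart in all libraries. JUNB was at 8.42, 6.2 and 6.19 CPM in the WT and at 4.74, 5.49 and 5.3 CPM in the KO line. Its groups did not overlap either, but replicate 1 of the WT stood apart, and the log2 difference of -0.42 ± 0.17 (adjusted p = 0.0461) became -0.26 (adjusted p = 0.285) without that library. The JUNB call was also lost without replicate 1, 2 or 3 of TET2 KO shControl (adjusted p = 0.151, 0.0634 and 0.0819), without a filter on low counts (adjusted p = 0.0551) and with a replicate block (adjusted p = 0.0533).

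The FOS family was split. FOSL1 was at 18.4, 19.8 and 19.8 CPM in the WT and at 14.1, 12.3 and 15.5 CPM in the KO line, a log2 difference of -0.47 ± 0.10 (adjusted p = 0.000205). FOSL2 went the other way, from 5.65, 5.14 and 5.39 CPM to 8.58, 8.67 and 10.1 CPM, a log2 difference of 0.76 ± 0.14 (adjusted p = 2.18e-05). Neither gene's groups overlapped. FOS was at 1.29, 1.08 and 1.3 CPM in the WT and at 0.548, 0.714 and 1.05 CPM in the KO line, and FOSB was at 1.08, 0.806 and 1.3 CPM and at 1.95, 0.644 and 1.37 CPM. Both genes were thinly counted. FOS was lower in each KO library with a log2 difference of -0.66 ± 0.46 that was not called (adjusted p = 0.258), and the FOSB groups overlapped, with a difference of 0.32 ± 0.39 (adjusted p = 0.537).

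IER2 was at 39.3, 35 and 34 CPM in the WT and at 31.5, 31.5 and 30 CPM in the KO line, a small difference of -0.22 ± 0.07 on the log2 scale with no overlap (adjusted p = 0.00811). DUSP1 was at 6.22, 3.86 and 4.41 CPM in the WT and at 2.24, 3.88 and 2.25 CPM in the KO line. Replicate 2 of the KO line reached the lowest WT library, and the log2 difference was -0.79 ± 0.25 (adjusted p = 0.00852). Without replicate 1 of TET2 WT shControl, IER2 and DUSP1 were no longer called (adjusted p = 0.0824 and 0.0891), and DUSP1 also lost its call without replicate 1 or 3 of TET2 KO shControl (adjusted p = 0.0588 and 0.0591). In that WT library 8 of the 10 genes lay above their group mean, with a median deviation of 0.07 on the log2 scale.

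**Figure D2:**
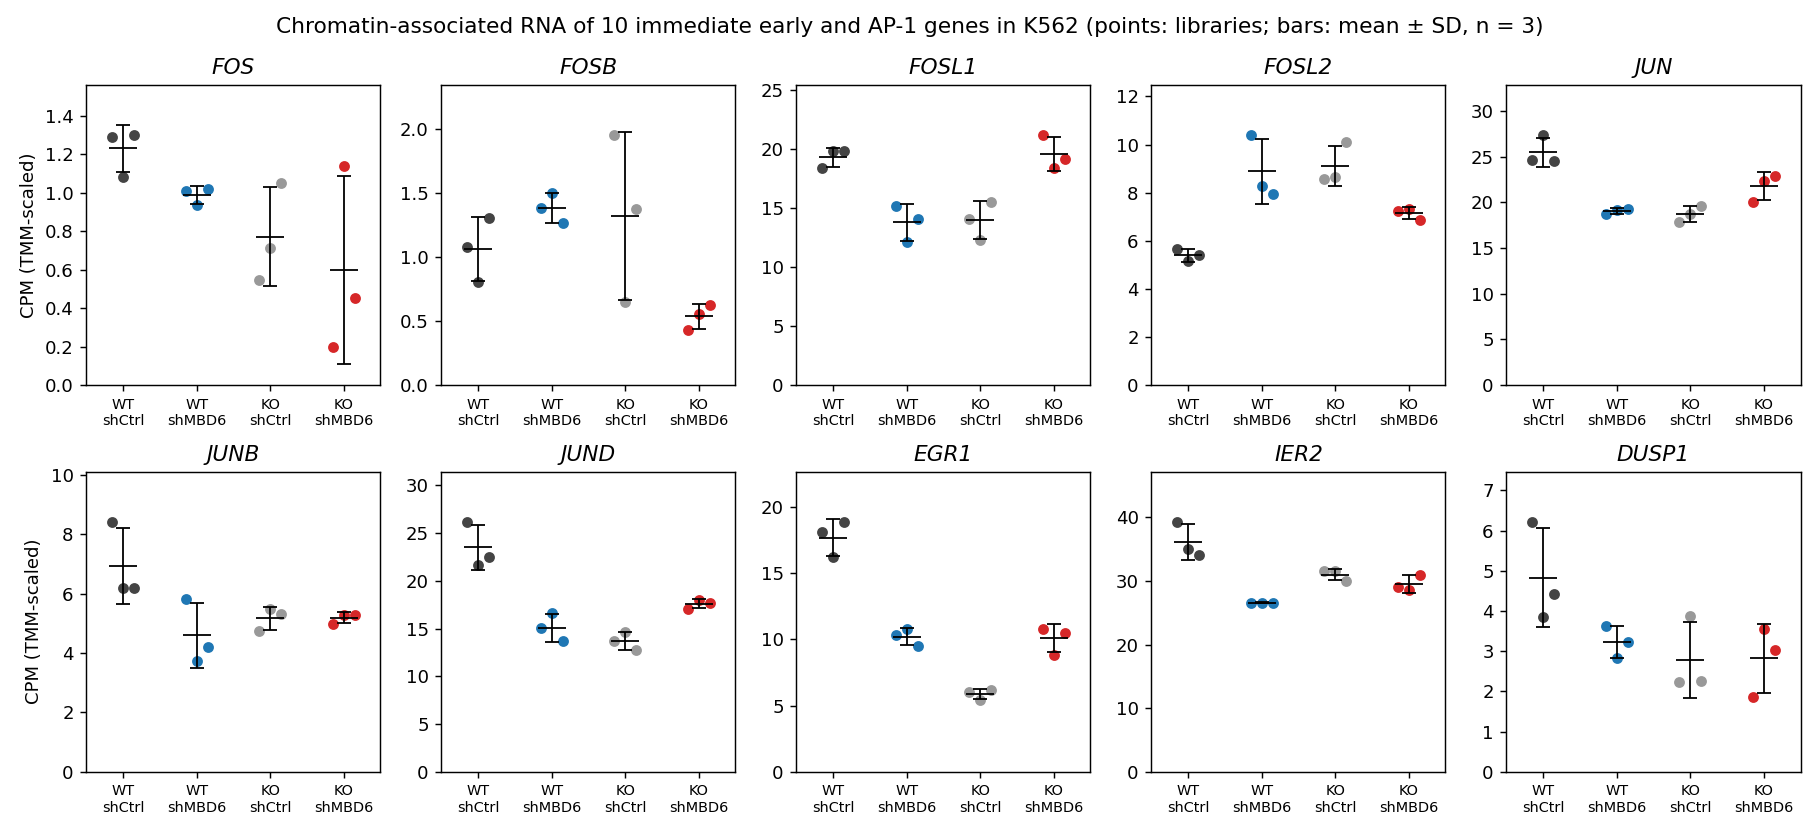
CPM of the 10 genes in each of 12 libraries (points), with the mean and SD of 3 libraries per group (bars), each panel with its own axis from 0. EGR1, JUND, JUN and FOSL1 are highest in TET2 WT shControl or level with the libraries labelled TET2 KO shMBD6, and FOSL2 runs opposite to them. Spreads are wide for FOS in both KO groups, for FOSB in TET2 KO shControl, and for DUSP1 in TET2 WT shControl and both KO groups.

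With the MBD6 shRNA in TET2 WT cells, the JUN family, FOSL1, EGR1 and IER2 were lower and FOSL2 was higher. Of the 10 genes 7 were called, against 42.5% of all genes. Of these, 1 was higher (17.7% of all genes) and 6 were lower (24.7% of all genes), and their median log2 difference was -0.46 beside 0.10 over all genes. This comparison shares its 3 control libraries, TET2 WT shControl, with the comparison of genotypes above, so the likeness of the 2 is not independent.

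EGR1 was at 10.3, 10.8 and 9.49 CPM in TET2 WT shMBD6, under all 3 control libraries, a log2 difference of -0.80 ± 0.11 (adjusted p = 5.09e-07). Its level was thus between those of TET2 WT shControl and TET2 KO shControl. The erythroid and megakaryocytic genes again stood lower, at 618 to 633 CPM in sum, with 5 of 8 tested called lower. JUND was at 15.1, 16.6 and 13.7 CPM, a log2 difference of -0.63 ± 0.09 (adjusted p = 1.06e-06), and JUN at 18.7, 19.2 and 19.3 CPM, a difference of -0.42 ± 0.08 (adjusted p = 5.56e-05). Both were under every control library. JUNB was at 5.82, 3.74 and 4.21 CPM, also under each control library, with a log2 difference of -0.59 ± 0.17 (adjusted p = 0.00623) that lost its call without replicate 1 of TET2 WT shControl (-0.43, adjusted p = 0.0689) or replicate 2 of TET2 WT shMBD6 (-0.47, adjusted p = 0.0536).

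FOSL1 was at 15.2, 12.1 and 14.1 CPM, a log2 difference of -0.48 ± 0.10 (adjusted p = 0.000151). FOSL2 was at 10.4, 8.27 and 7.93 CPM, a difference of 0.72 ± 0.14 (adjusted p = 4.58e-05). Both were outside the range of the control libraries in every library. IER2 was at 26.6 CPM in all 3 libraries, a log2 difference of -0.44 ± 0.07 (adjusted p = 2.13e-06). FOS was at 1.01, 0.935 and 1.02 CPM and FOSB at 1.38, 1.5 and 1.26 CPM. Neither was called, with log2 differences of -0.31 ± 0.46 and 0.38 ± 0.39 (adjusted p = 0.627 and 0.468). DUSP1 was at 3.63, 2.84 and 3.23 CPM, below each control library, and its log2 difference of -0.57 ± 0.24 missed the threshold (adjusted p = 0.0594). Fitted on the 6 WT libraries alone, DUSP1 was called (adjusted p = 0.0129).

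In the TET2 KO line the picture turned. In the libraries labelled TET2 KO shMBD6, in which MBD6 itself was not lower, FOSL1, JUN, JUND and EGR1 were higher than in TET2 KO shControl, and FOSB and FOSL2 were lower. Of the 10 genes 6 were called, against 36.4% of all genes. Of these, 4 were higher (15.7% of all genes) and 2 lower (20.6% of all genes). The median log2 difference was 0.01, beside -0.07 over all genes.

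EGR1 was at 10.8, 8.84 and 10.5 CPM in the libraries labelled TET2 KO shMBD6, each above all 3 KO controls, a log2 difference of 0.77 ± 0.12 (adjusted p = 2.18e-06). The summed erythroid and megakaryocytic genes were at 734 to 751 CPM, with 7 of 8 tested called higher. FOSL1 was at 21.2, 18.4 and 19.2 CPM, a log2 difference of 0.48 ± 0.10 (adjusted p = 0.000184), and JUND at 17.1, 18 and 17.7 CPM, a difference of 0.37 ± 0.09 (adjusted p = 0.00238). For both, every library was above the KO controls. JUN was at 20.1, 22.4 and 22.9 CPM, a difference of 0.22 ± 0.08 (adjusted p = 0.0354).

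FOSL2 was at 7.22, 7.34 and 6.88 CPM, below each KO control, a log2 difference of -0.35 ± 0.14 (adjusted p = 0.0428). FOSB was at 0.426, 0.556 and 0.623 CPM, a difference of -1.31 ± 0.41 (adjusted p = 0.0106), and its nearest KO control was at 0.644 CPM. These 3 calls, of FOSB, FOSL2 and JUN, were lost without replicate 1 of TET2 KO shControl (adjusted p = 0.13, 0.0539 and 0.141), the library with the most FOSB. FOSL2 was at the threshold and lost its call when any 1 of the 6 libraries of the KO line was left out (adjusted p = 0.0539 to 0.207). The FOSL2 call was also lost with library totals (-0.22, adjusted p = 0.211), without a filter on low counts (adjusted p = 0.139) and with only the groups compared (adjusted p = 0.0883). JUN lost its call also without replicate 2 of TET2 KO shControl (adjusted p = 0.0856) or replicate 2 or 3 of the libraries labelled TET2 KO shMBD6 (adjusted p = 0.0979 and 0.133).

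The remaining genes were not called. JUNB was at 4.96, 5.29 and 5.28 CPM, a log2 difference of 0.00 ± 0.17 (adjusted p = 0.998), IER2 at 29, 28.5 and 31 CPM, a difference of -0.07 ± 0.07 (adjusted p = 0.461), and DUSP1 at 1.87, 3.55 and 3.04 CPM, a difference of 0.02 ± 0.25 (adjusted p = 0.958). FOS ran from 0.198 to 0.454 and 1.14 CPM in the 3 libraries, the widest spread of any gene here, and its difference was -0.37 ± 0.47 (adjusted p = 0.596). Each of the 4 overlapped its KO controls.

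Whether the libraries labelled shMBD6 differed from their controls in the same way in both lines was tested directly as an interaction, the log2 difference in the KO line minus that in the WT. The interaction was called for 8 of the 10 genes, against 49.4% of all genes, 6 positive (23.9% of all genes) and 2 negative (25.5% of all genes), and its median was 0.59, beside -0.19 over all genes. EGR1 had the largest positive value, 1.57 ± 0.16 (adjusted p = 7.32e-10), since it fell in the WT and rose in the KO line. JUND followed at 1.00 ± 0.13 (adjusted p = 1.2e-07), FOSL1 at 0.96 ± 0.14 (adjusted p = 5.88e-07) and JUN at 0.64 ± 0.11 (adjusted p = 1.79e-05). These 3 genes, too, were called in both lines with opposite signs.

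JUNB and IER2 were called in the WT alone, and their interactions were 0.59 ± 0.25 (adjusted p = 0.0467) and 0.37 ± 0.10 (adjusted p = 0.00174). The JUNB value was near the threshold and lost its call without 8 of the 12 libraries, one at a time (adjusted p = 0.0512 to 0.166), and under 5 other settings. FOSL2 had an interaction of -1.07 ± 0.19 (adjusted p = 1.81e-05), higher in the WT and lower in the KO line, and FOSB one of -1.68 ± 0.56 (adjusted p = 0.013), which was not called without replicate 1 of TET2 KO shControl (-1.29, adjusted p = 0.0819). FOS (-0.06 ± 0.66, adjusted p = 0.957) and DUSP1 (0.60 ± 0.35, adjusted p = 0.162) were not called, and DUSP1 was called without replicate 2 of TET2 KO shControl (adjusted p = 0.0384) or replicate 1 of the libraries labelled TET2 KO shMBD6 (adjusted p = 0.0304).

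**Figure D3:**
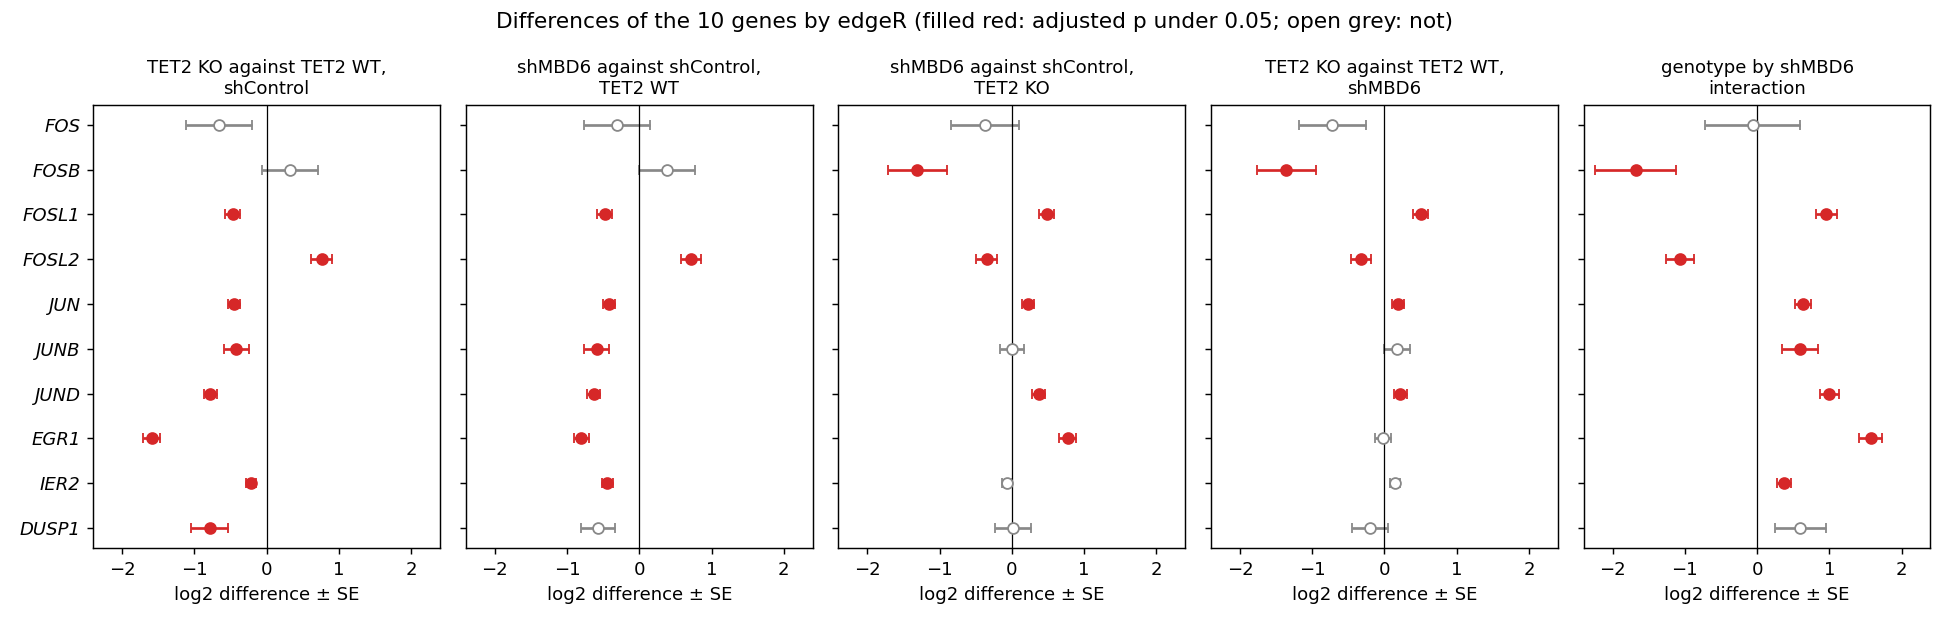
Log2 differences of the 10 genes with their SE in the 4 comparisons and the interaction, filled red where the adjusted p was under 0.05. EGR1 lies at -1.59 and -0.80 in the first 2 panels and at 0.77 in the third, and FOSL2 lies on the opposite side of 0 in each of these.

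The last comparison set the libraries labelled TET2 KO shMBD6 against TET2 WT shMBD6, and MBD6 was higher in the former by 0.30 ± 0.08 (adjusted p = 0.00139) with overlapping groups. Of the 10, 5 were called, against 58.6% of all genes, 3 higher (30.1% of all genes) and 2 lower (28.5% of all genes) in the libraries labelled TET2 KO shMBD6, and the median was 0.07 beside -0.03 over all genes. EGR1 was not called here, with a log2 difference of -0.02 ± 0.11 (adjusted p = 0.904) with overlapping groups. FOSL1 was higher by 0.50 ± 0.10 (adjusted p = 7.24e-05) and FOSB lower, at -1.36 ± 0.41 (adjusted p = 0.00481). FOSL2, JUN and JUND were close to the threshold, at -0.32 ± 0.14, 0.19 ± 0.08 and 0.22 ± 0.09 (adjusted p = 0.046, 0.0437 and 0.0432), and 2 of these 3 calls were lost under each other scaling, filter or tool that was tried.

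Most of the 10 genes are short, and short genes as a class moved in these data. The spans ran from 1.83 kb for JUNB to 8.53 kb for FOSL1, with FOSL2 at 24.9 kb. Over the 2640 protein-coding genes of up to 10 kb, the median log2 difference was -0.20 between the genotypes with the control shRNA, -0.24 for the MBD6 shRNA in the WT, 0.19 for the libraries so labelled in the KO line and 0.42 for the interaction, while over 3521 genes of more than 100 kb it was 0.11, 0.26, -0.29 and -0.56. EGR1 at -1.59, -0.80, 0.77 and 1.57 was beyond the quartiles of genes between 2 and 5 kb in each. JUN at -0.45, -0.42, 0.22 and 0.64 was within those of genes between 5 and 10 kb. FOSL2 at 0.76, 0.72, -0.35 and -1.07 was beyond those of genes between 10 and 30 kb. IER2 and JUNB were within the quartiles of their own bins in each. JUND (-0.78) and DUSP1 (-0.79) were beyond theirs only between the genotypes, and FOSL1 (0.96) only in the interaction. FOSB was beyond its own in each, and FOS between the genotypes and in the KO line.

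With the trend on gene span removed from each library, an alternative chosen after seeing the data, the members called numbered 7 between the genotypes with the control shRNA, 7 for the MBD6 shRNA in the WT, 4 in the KO line and 6 for the interaction. EGR1, JUND, FOSL1 and FOSB kept their calls in the KO line, and JUN (adjusted p = 0.155) and FOSL2 (adjusted p = 0.0738) did not. Between the genotypes with the control shRNA IER2 was lost (-0.14, adjusted p = 0.109), and in the interaction JUNB (adjusted p = 0.0749) and IER2 (adjusted p = 0.0532) were lost. Over all genes, the share of calls that were higher was then 25.5% for the MBD6 shRNA in the WT, beside 41.8%, and 62.2% in the KO line, beside 43.3%, while 66% of the interactions called were positive, beside 48.4%. What the span trend itself reflects was not tested.

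**Figure D4:**
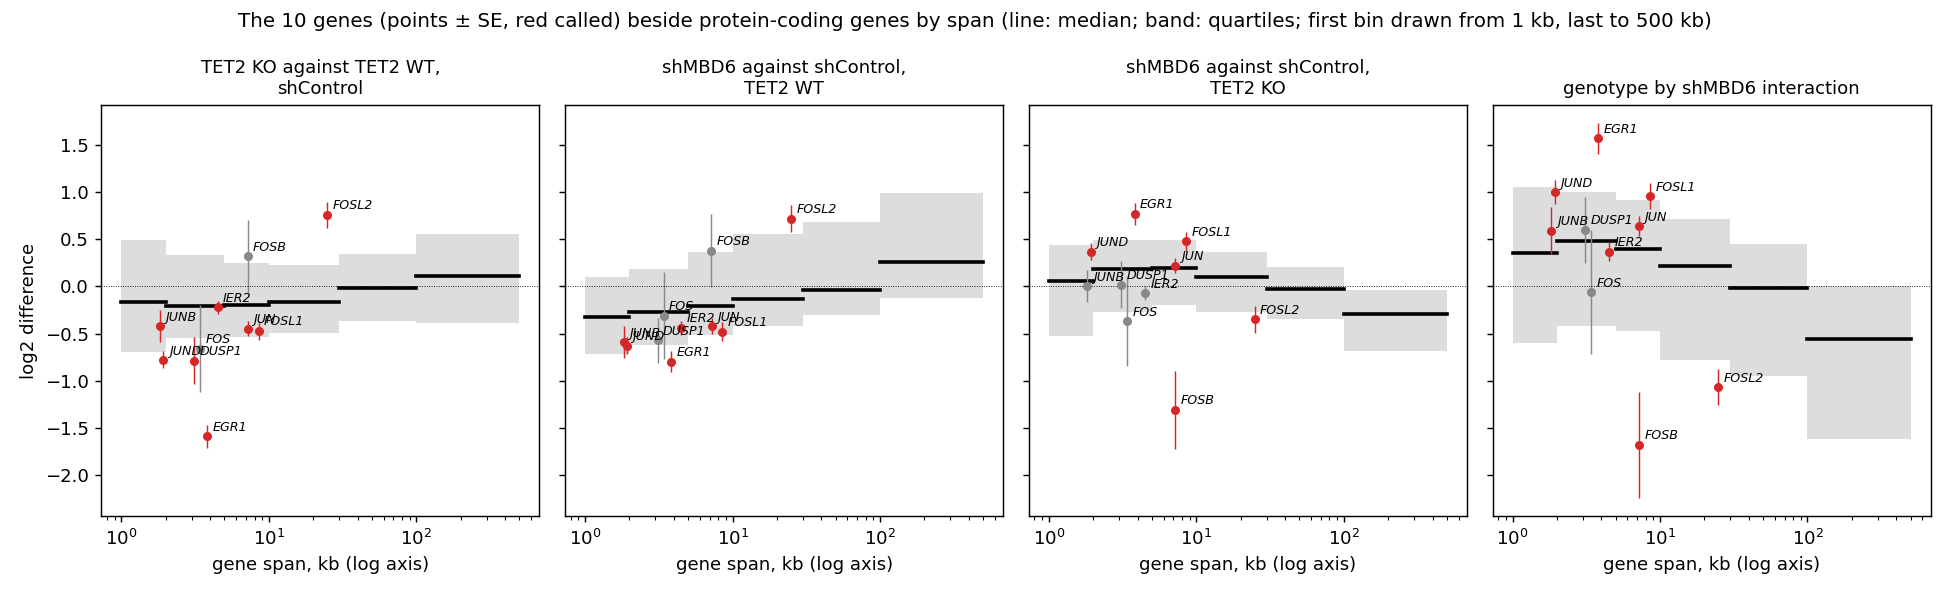
Log2 difference against gene span in kb (log axis) for 3 comparisons and the interaction. Black lines are medians and grey bands the quartiles of protein-coding genes in bins of span, and points are the 10 genes with their SE, red where called. The medians slope from -0.21 at 2 to 5 kb to 0.11 above 100 kb between genotypes and the other way for the interaction, and EGR1 lies outside the band in every panel.

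The direction of the genes was also followed under other scalings. With library totals in place of the trimmed mean, the median over all tested genes went from -0.05 to -0.23 between the genotypes with the control shRNA, from 0.10 to 0.19 for the MBD6 shRNA in the WT, from -0.07 to 0.04 in the KO line and from -0.03 to -0.18 between the genotypes with the MBD6 shRNA. The share of called genes that were higher moved from 51.4% to 35.3%, from 41.8% to 53.5%, from 43.3% to 59.9% and from 51.4% to 39.5% in the same order, and with DESeq2's size factors it was 55.2% for the MBD6 shRNA in the WT. No called member changed direction under any scaling, though calls were lost, among them FOSL2 in the KO line with library totals (adjusted p = 0.211). IER2 in the KO line, which was not called, moved from -0.07 to 0.05.

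How steady the genes were between libraries of a group was set beside genes of like abundance. The pooled within-group SD of log2 CPM was 0.0677 for IER2 and 0.0764 for JUN, under the medians of 0.0869 and 0.102 for genes within 0.5 log2 units of their level. For DUSP1 it was 0.383, above 90.7% of 1725 such genes, and for FOS 0.644, above 77.7% of 2100. FOSB, at 0.458, was close to the median of 0.453 of its like. Beside genes of like abundance, the spread was thus wide for FOS and DUSP1 and not for FOSB.

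Other genes of the pathway were taken from lists drawn up with earlier results of these data known, and were counted in the comparison of genotypes with the control shRNA, the MBD6 shRNA in the WT and the libraries so labelled in the KO line, in this order. Over all genes 45.8%, 42.5% and 36.4% were called. Of 11 tested genes for other leucine zipper proteins that pair with AP-1 members, 4, 3 and 3 were higher and 4, 4 and 3 lower (72.7%, 63.6% and 54.5% called). BATF3, a partner of JUN, had the largest increase, from 0.445 ± 0.187 CPM (SD) in TET2 WT shControl to 5.09 ± 0.124 in TET2 KO shControl and 3.51 ± 0.38 in TET2 WT shMBD6, with 2.01 ± 0.286 in the libraries labelled TET2 KO shMBD6. BATF rose by log2 differences of 1.58 ± 0.44 and 1.63 ± 0.44 in the first 2 comparisons. ATF3, a stress-induced factor, was at -0.70 ± 0.06 between genotypes and at 0.98 ± 0.06 in the KO line, the same signs as EGR1.

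Of 23 tested other immediate early genes, 4, 4 and 6 were higher and 7, 4 and 5 lower (47.8%, 34.8% and 47.8% called, beside the 45.8%, 42.5% and 36.4% of all genes), and the median of -0.11, 0.15 and -0.11 lay near that of all genes. NR4A2, an orphan nuclear receptor, followed the signs of EGR1, at -0.73 ± 0.11 in the WT and 0.71 ± 0.11 in the KO line. NR4A1 went against EGR1 between the genotypes with the control shRNA, at 1.35 ± 0.24 (adjusted p = 2.27e-05). The interaction was called for 14 of these 23 genes (60.9%, beside 49.4% of all genes). Of these, 7 were positive and 7 negative (23.9% and 25.5% of all genes). Its median over the list was -0.72, beside -0.19 over all genes, so the list as a whole did not share the direction of EGR1. Of 19 tested genes of the cascade from RAS to serum response factor, 10, 4 and 3 were higher and 5, 8 and 5 lower (78.9%, 63.2% and 42.1% called). ARAF, a kinase of that cascade, was at -0.73 ± 0.07, -0.71 ± 0.07 and 0.77 ± 0.07, and ELK3, a partner of serum response factor, at 1.33 ± 0.08 and 0.33 ± 0.08 in the first 2. Of 13 genes of the JNK and p38 cascades, 4, 2 and 2 were higher and 4, 6 and 7 lower (61.5%, 61.5% and 69.2% called). Among 13 tested inhibitors of ERK signalling, 4, 2 and 2 were higher and 2, 5 and 2 lower (46.2%, 53.8% and 30.8% called), with DUSP5 higher by 1.36 ± 0.18 and 1.15 ± 0.18 in the first 2 comparisons.

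Of 12 tested AP-1 target genes, 6, 6 and 3 were higher and 4, 3 and 4 lower (83.3%, 75% and 58.3% called, beside the 45.8%, 42.5% and 36.4% of all genes), with a median of 0.72, 0.28 and -0.08. AREG, the growth factor amphiregulin, had the signs of EGR1 in these 3 comparisons, at 8.3 ± 0.553 CPM (SD) with the control shRNA and 3.64 ± 0.06 with the MBD6 shRNA in the WT, and at 1.54 ± 0.175 CPM in the KO controls and 5.85 ± 1.66 in the libraries labelled TET2 KO shMBD6. Unlike EGR1 it was also called between the groups labelled shMBD6, at 0.69 ± 0.19 (adjusted p = 0.00239). CD44, a cell adhesion receptor, ran against it, with 2.05 ± 0.15 in the WT and -1.37 ± 0.15 in the KO line. Handling stress induces these genes as well as heat shock genes. Of 10 tested heat shock genes 6, 5 and 6 were called (60%, 50% and 60%), with 4 higher and 2 lower between genotypes, all 5 lower in the WT, and 2 higher and 4 lower in the KO line. The inducible HSPA1A was at 0.221 CPM or less and HSPA1B had 0 counts. Reads that did not align uniquely were assigned to no gene, so these 2 values do not show that the RNA was absent. The summed level of the 11 listed heat shock genes was 375 to 391 CPM in the WT controls and 286 to 293 CPM with the MBD6 shRNA in the WT. It was 365 to 373 CPM in the KO controls and 370 to 381 CPM in the libraries labelled TET2 KO shMBD6. Their part in the members' differences was not tested.

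Over the 12 libraries, the protein-coding genes whose log2 CPM was most like that of 3 members were listed as a description, since the libraries share 4 groups and their depth. For EGR1 they were LSS (r = 0.985), ANK1 (r = 0.984) and WNK4 (r = 0.983), and ANK1, the ankyrin of red cells, was at 806 ± 16.6, 582 ± 1.66, 425 ± 1.58 and 566 ± 6 CPM (SD, n = 3) in the order TET2 WT shControl, TET2 WT shMBD6, TET2 KO shControl and labelled TET2 KO shMBD6, the order of EGR1. For JUN they were PAXIP1 (r = 0.974), WSB1 (r = 0.966) and SFPQ (r = 0.964). For FOS they were RGS2 (r = 0.953), AP2M1 (r = 0.914) and LRRC46 (r = 0.910), and RGS2, a regulator of G-protein signalling, was at 1.55 ± 0.0385, 1.15 ± 0.114, 0.967 ± 0.424 and 0.673 ± 0.431 CPM, with wide spreads in the same 2 KO groups as FOS. The r values are Pearson's, over 16256 genes compared.

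Overlap with other genes bears on some of the counts. FOSL2 contains another annotated gene on its strand, which had no counts, so reads there may be missing from FOSL2. FOSB, JUNB, IER2, DUSP1 and FOSL2 overlap genes on the opposite strand. Of 7602 genes that lie inside a gene of the same strand 95.3% had 0 counts in all 12 libraries, against 21.9% of 10413 that lie inside a gene of the opposite strand, so the counting separated strands and took whole gene spans. By GENCODE v44 on hg38, EGR1 spans chr5:138465479-138469303, JUN chr1:58776845-58784048, JUND chr19:18279694-18281622 and FOSL2 chr2:28392448-28417317, all protein-coding.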

How the data were processed

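Chromatin-associated RNA was sequenced from 12 K562 libraries after depletion of ribosomal RNA, with a stranded total RNA kit. The deposited values are raw counts of reads per gene, which the authors made with Trimmomatic 0.39, HISAT2 2.2.1 and HTSeq 0.12.4 on hg38 with GENCODE v29, and no spike-in lines are among them, so levels are relative to each library. The summary classes of unassigned reads stayed out of library sizes. Shares are of the total over genes and all summary classes. Reads that overlapped no gene were 13.1 to 16%, ambiguous ones 4.63 to 5.24%, and reads not aligned uniquely 10.1 to 11.2%. Identifiers were matched to GENCODE v44 without their version (99.12% of 58721). Mouse stem cell tables of the same series were not used.

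All 12 libraries were fitted together with a mean per group in edgeR 4.0.16 (R 4.3.3): TMM scaling, filterByExpr with a minimum count of 10, a robust quasi-likelihood fit, and Benjamini-Hochberg adjustment over 26023 genes, with calls under 0.05. The procedure was tested on simulated data. CPM use TMM-scaled totals, and correlations use log2 CPM with a prior count of 2. Alternatives were DESeq2 1.42.0, its size factors, library totals, other filters, a replicate block, only the groups compared, each library left out and, added later, removal of the span trend. Libraries of a group differed by more than sampling noise. The members and lists were chosen with earlier results of these data known. The rule for named genes took the 10 members, MBD6 and TET2, and the 3 genes most like FOS, JUN and EGR1. It also took the 2 called genes with the largest increases and decreases of each list and comparison. Of these list genes, values are printed for NR4A1 and for some that recurred in the first 3 comparisons.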

Additional observations from a re-analysis of the deposited data

Results flagged for a closer look

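For 8 of the 10 genes the libraries labelled shMBD6 differed from their controls by different amounts in the 2 TET2 genotypes, by the interaction term of edgeR's quasi-likelihood fit. On the log2 scale, as the difference in the TET2 KO line minus that in TET2 WT, it was 1.57 for EGR1, 1.00 for JUND, 0.96 for FOSL1, 0.64 for JUN, 0.59 for JUNB, 0.37 for IER2, -1.07 for FOSL2 and -1.68 for FOSB. The interaction was called for 49.4% of all genes, and MBD6 itself had one of 0.75, since its RNA was lower in the TET2 WT shMBD6 libraries and not in those labelled TET2 KO shMBD6. Whether the shRNA acted in these 3 libraries was not tested.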

How the results depend on the processing

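Over the other scalings, filters, tools and fits, 358 of the 390 recomputed log2 differences of the 10 genes kept their direction and their side of the threshold, 29 lost and 1 gained a call, and 2 changed sign. With 1 library left out, 525 of 600 were kept, 52 lost and 10 gained a call, and 13 changed sign. Between the genotypes with the MBD6 shRNA, 3 members were called in place of 5 with DESeq2, its size factors, library totals, no filter, the stricter filter, the span trend removed or only the groups compared, and 2 to 6 with 1 library left out. The members called were 5 to 8 of 8 between the genotypes with the control shRNA and 3 to 6 of 6 for the MBD6 shRNA in the KO line with 1 library left out, lowest without replicate 1 of TET2 WT shControl and of TET2 KO shControl. The 2 sign changes under other settings were of IER2 (0.05 with library totals) and DUSP1 (-0.01 with the span trend removed) in the KO line, both not called. Left-out libraries changed the sign of values that were not called, some of them not near 0. Between genotypes with the control shRNA it was FOSB (0.32, range -0.07 to 0.65). In the KO line it was FOS (-0.37, range -1.23 to 0.04) and DUSP1 (0.02, range -0.17 to 0.33). Between genotypes with the MBD6 shRNA it was EGR1 (-0.02, range -0.07 to 0.07) and DUSP1 (-0.20, range -0.39 to 0.03). For the interaction it was FOS (-0.06, range -0.91 to 0.36). TET2 RNA turned from 0.09 to -0.09 with library totals and to -0.02 with the span trend removed between genotypes with the control shRNA. With the MBD6 shRNA, removing the span trend turned it from -0.36 (adjusted p = 3.9e-09) to 0.10 (adjusted p = 0.0322), both called. The TET2 interaction turned from -0.45 (adjusted p = 5e-08) to 0.12 (adjusted p = 0.0767). The cause of these changes was not tested. Same-numbered libraries did not deviate together (correlations of -0.0174 to 0.0201), so the numbers do not pair them, and with the replicate block 7, 7, 6, 4 and 8 members were called, in place of 8, 7, 6, 5 and 8. FOS and FOSB, with few counts per library, allow only coarse statements.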
